A study of Mus musculus with 5 samples.

Results

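Described here are 9 transcription factors that direct neuron formation and photoreceptor or bipolar cell fate in the retina: Neurog2, Atoh7, Neurod1, Neurod4, Insm1, Otx2, Crx, Nrl and Nr2e3. They were chosen by symbol from the 33696 genes of the deposited gene list, and all 9 are listed in every library. The data are single-cell RNA counts of tdTomato+ cells sorted from adult mouse retinas 56 days after injection of an adeno-associated virus (AAV). All mice were Glast-CreERT2; Rosa26-Ai65 (C57BL/6J), were 12 to 20 weeks old, were of both sexes and received tamoxifen. The control AAV, ShH10-GFAP-mKate2, carries a fluorescent protein (16 pooled retinas, 2 libraries, called mKate2 AAV). The other AAV, ShH10-GFAP-Yap5SA, carries Yap5SA, a mutant of the Hippo pathway effector YAP that escapes inhibitory phosphorylation (21 pooled retinas, 3 libraries, called Yap5SA AAV). The Gfap promoter of both AAVs also drives FlpO, the Glast promoter drives Cre, and tdTomato needs both recombinases. A cell that uses both promoters can therefore carry the label, and the data hold no group without AAV. The labels do not tie a library to particular animals, so p-values measure only the spread between these libraries, which may be technical. The comparison asks whether Müller glia (MGs) that received Yap5SA, and the progeny of those cells, hold more RNA of neurogenic factors than MGs that received the control.

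MGs are the radial glia of the retina, and in fish they re-enter the cell cycle after injury and give rise to neurons, which mammalian MGs rarely do. In the developing retina, proneural basic helix-loop-helix (bHLH) factors start neuron formation in progenitors, and homeodomain, leucine zipper and nuclear receptor factors then fix a neuron as a photoreceptor or bipolar cell. Several of the photoreceptor factors stay on for life in mature rods and cones, so their RNA marks both new and old photoreceptors.

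The libraries differed in depth, cell content and processing. The mKate2 AAV libraries held 13614102 UMIs (unique molecular identifiers, each standing for 1 RNA molecule) in 2748 barcodes for replicate 1 and 50938304 UMIs in 7729 barcodes for replicate 2. The Yap5SA AAV libraries held 13132765 UMIs in 1407 barcodes, 12317170 in 1364 and 16035182 in 3409 for replicates 1, 2 and 3. Yap5SA AAV replicates 1 and 2 shared 1361 barcodes, 99.8% of the smaller library, while other pairs of libraries shared at most 7. Their counts differed less than 2 draws from the same RNA would (chi-square divided by its degrees of freedom, 0.335 over 16313 genes), so they were taken as 1 sample and replicate 2 was left out. The file headers name Cell Ranger 8.0.0 for mKate2 AAV replicate 1 and Yap5SA AAV replicates 1 and 2, and version 9.0.1 for mKate2 AAV replicate 2 and Yap5SA AAV replicate 3. The version thus splits each group, and tdTomato is listed only in the 8.0.0 files.

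Cells with at least 1000 UMIs and at most 15% mitochondrial UMIs were kept, 10749 in the 4 libraries used. MGs were cells in which Glul, Rlbp1, Slc1a3, Clu and Aqp4, genes of glutamate and retinoid handling and water transport, together made at least 0.5% of UMIs. By this rule 6540 cells, 60.8%, were MGs, although the labels call all samples FACS-purified MGs. From here on, values of the mKate2 AAV libraries are listed for replicate 1 and then 2, and those of the Yap5SA AAV libraries for replicate 1 and then 3. The MG share was 89.4% and 51.4% in the mKate2 AAV libraries and 71.3% and 58.1% in the Yap5SA AAV libraries. Median UMIs per MG were 6194.5 and 2918.5 in the mKate2 AAV libraries and 10778 and 2920 in the Yap5SA AAV libraries. Leiden clusters, some of which include MGs by this rule, were called rod-like (1255 cells), cone-like (79), ON bipolar-like (216), OFF bipolar-like (180), amacrine-like (221), retinal ganglion-like (37), microglia-like (1209), pigment epithelium-like (83), T cell-like (66) and endothelium-like (35) from marker genes. Rod-like cells numbered 662 in mKate2 AAV replicate 2 and 588 in Yap5SA AAV replicate 3, but 5 in mKate2 AAV replicate 1 and 0 in Yap5SA AAV replicate 1. Libraries with many neurons were therefore the 9.0.1 libraries, 1 in each group. Different clusters also led among the MGs of each library: cluster 3 held 52.1% in mKate2 AAV replicate 1, clusters 1 and 2 held 34.7% and 34.3% in replicate 2, cluster 4 held 53.1% in Yap5SA AAV replicate 1 and cluster 0 held 45.9% in replicate 3.

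All 9 factors are annotated as protein-coding on build GRCm39. Neurog2 (ENSMUSG00000027967) lies at chr3:127426448-127429280 on the plus strand with 2 exons, and Atoh7 (ENSMUSG00000036816) at chr10:62935430-62937058 on the plus strand with 1 exon. Neurod1 (ENSMUSG00000034701) lies at chr2:79282865-79287294 on the minus strand and overlaps Cerkl on the same strand. Neurod4 (ENSMUSG00000048015) lies at chr10:130104021-130116132 on the minus strand, and Insm1 (ENSMUSG00000068154) at chr2:146063841-146066940 on the plus strand with 1 exon. Otx2 (ENSMUSG00000021848) lies at chr14:48894099-48911276 on the minus strand and overlaps Otx2os1 on the other strand. Crx (ENSMUSG00000041578) lies at chr7:15599872-15613893 and Nrl (ENSMUSG00000040632) at chr14:55756435-55762438, both on the minus strand. Nr2e3 (ENSMUSG00000032292) lies at chr9:59850054-59867942 on the minus strand and overlaps Gm7616 on the other strand and Gm15507 on the same strand. Counts of Neurod1, Otx2 and Nr2e3 are therefore uncertain to the extent that reads from an overlapping gene were assigned to them. Strand cannot separate Neurod1 from Cerkl or Nr2e3 from Gm15507. For the genes on the other strand, the use of strand in counting is not given in the sources used here.

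RefSeq promoters (build GRCm38.p6, 250 bases before to 50 after the start) were found for 8 of the 9 factors, 12 promoters in all, and Insm1 had none in the table. The promoters of Neurod1, Crx, Nrl and Nr2e3 are shown because these photoreceptor factors were high and low in the same libraries, and that of Neurog2 because its levels did not follow theirs. Letters searched on both strands were TAATCC, bound by Otx2 and Crx (in 7.06% of 32851 promoters of 300 bases from 27025 genes), TGCTGA, the core of sites of the Maf family to which Nrl belongs (in 19.5%), and CANNTG, the E-box of bHLH factors (in 72.3%). Capitals mark TAATCC or TGCTGA, or GGATTA and TCAGCA where the match is on the other strand. The windows are Neurog2 at chr3:127632886-127633185 (plus strand), Neurod1 at chr2:79456587-79456886, Crx at chr7:15879906-15880205, Nrl at chr14:55524203-55524502 and Nr2e3 at chr9:59950030-59950329 (all minus strand), each printed 5′ to 3′ along its gene's strand.
Neurog2: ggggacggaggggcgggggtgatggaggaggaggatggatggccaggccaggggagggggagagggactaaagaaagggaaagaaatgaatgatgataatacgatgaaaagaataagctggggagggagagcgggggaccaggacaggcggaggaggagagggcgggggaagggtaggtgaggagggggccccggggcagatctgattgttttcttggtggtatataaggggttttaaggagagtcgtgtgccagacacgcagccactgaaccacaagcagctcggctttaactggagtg
Neurod1: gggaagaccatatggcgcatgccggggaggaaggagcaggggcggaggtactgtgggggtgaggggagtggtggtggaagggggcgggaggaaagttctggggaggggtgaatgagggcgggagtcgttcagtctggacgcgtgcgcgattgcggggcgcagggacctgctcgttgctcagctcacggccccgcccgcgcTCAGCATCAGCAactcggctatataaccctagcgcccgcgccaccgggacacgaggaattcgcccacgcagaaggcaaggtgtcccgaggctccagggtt
Crx: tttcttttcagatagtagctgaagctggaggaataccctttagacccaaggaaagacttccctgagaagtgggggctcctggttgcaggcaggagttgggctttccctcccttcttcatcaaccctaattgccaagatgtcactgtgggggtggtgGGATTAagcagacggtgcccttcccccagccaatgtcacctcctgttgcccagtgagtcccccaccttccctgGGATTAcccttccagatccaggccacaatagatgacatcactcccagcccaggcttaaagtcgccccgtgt
Nrl: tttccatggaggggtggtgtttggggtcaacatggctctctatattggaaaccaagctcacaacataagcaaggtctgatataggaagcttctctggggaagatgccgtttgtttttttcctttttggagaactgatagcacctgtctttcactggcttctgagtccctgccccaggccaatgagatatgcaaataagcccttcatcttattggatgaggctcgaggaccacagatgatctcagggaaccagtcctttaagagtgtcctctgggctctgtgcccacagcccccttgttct
Nr2e3: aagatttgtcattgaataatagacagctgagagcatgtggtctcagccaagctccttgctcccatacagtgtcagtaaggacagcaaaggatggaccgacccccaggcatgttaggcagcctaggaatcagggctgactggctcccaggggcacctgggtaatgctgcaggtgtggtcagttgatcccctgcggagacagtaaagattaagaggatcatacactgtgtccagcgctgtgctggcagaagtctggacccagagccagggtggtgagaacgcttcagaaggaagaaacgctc
The Crx window held GGATTA at -94 and -21 from the start, and 1 of the 4 Otx2 windows at -211. TGCTGA letters were in windows of 4 factors, Atoh7, Neurod1, Neurod4 and Otx2, and the Neurod1 matches at -50 and -44 lie end to end. An E-box was in windows of 6 factors, among them Nrl with 2 matches at -111 and -19 and Nr2e3 with 5. The Neurog2 window held none of the 3 motifs, which says only that these letters are not in these bases.

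In MGs, none of the 7 factors abundant enough to be tested passed the test between Yap5SA AAV and mKate2 AAV. For all 9, the libraries of the groups overlapped when all MGs of a library were summed. The spread between the libraries of a group was wide for the photoreceptor factors, which were low in the 8.0.0 libraries and high in the 9.0.1 libraries of both groups. Neurog2 had the narrowest spread for its level. UMIs were summed over the MGs of each library and are given as counts-per-million (CPM) of all UMIs in those cells. Intervals are exact 95% Poisson intervals of the count and cover counting error only.

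Neurog2, a proneural bHLH factor of retinal progenitors, was found in MGs of every library. Its level was 3.62 CPM (interval 2.62 to 4.88, 43 UMIs) and 5.97 CPM (4.91 to 7.19, 111 UMIs) in the mKate2 AAV libraries. The Yap5SA AAV libraries had 7.90 CPM (6.22 to 9.88, 76 UMIs) and 5.74 CPM (4.19 to 7.69, 45 UMIs). Yap5SA AAV replicate 1 was thus the highest library, and replicate 3 lay between the control libraries. The means were 4.80 ± 1.66 CPM in mKate2 AAV and 6.82 ± 1.52 CPM in Yap5SA AAV (SD, n = 2 each). The log2 fold change was 0.37 with an SE of 0.52 (edgeR quasi-likelihood test, adjusted p = 1.00). Atoh7, the bHLH factor needed for ganglion cell formation, had 4 UMIs in all MGs. It had 0 UMIs in mKate2 AAV replicate 1 and Yap5SA AAV replicate 1, which allows up to 0.253 and 0.312 CPM, 1 UMI in mKate2 AAV replicate 2 (0.0538 CPM) and 3 in Yap5SA AAV replicate 3 (0.383 CPM). It was too rare to be tested.

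Neurod1, a bHLH factor of photoreceptor and amacrine differentiation, stood at 6.90 and 60.0 CPM in the mKate2 AAV libraries (82 and 1115 UMIs) and at 0.623 and 46.5 CPM in the Yap5SA AAV libraries (6 and 364 UMIs). The highest cell held 14 of the 82 and 193 of the 1115 in mKate2 AAV, and 3 of the 6 and 86 of the 364 in Yap5SA AAV. Each group thus held 1 high and 1 low library, with means of 33.4 ± 37.5 and 23.5 ± 32.4 CPM (SD, n = 2). Its log2 fold change was -0.67 with an SE of 1.82 (edgeR, adjusted p = 1.00). Neurod4, a bHLH factor of bipolar and amacrine genesis, stood at 0.842 and 2.91 CPM in mKate2 AAV (10 and 54 UMIs) and at 0.208 and 1.28 CPM in Yap5SA AAV (2 and 10 UMIs), with a log2 fold change of -1.51 and an SE of 1.18. Insm1, a zinc finger factor of neuronal and endocrine precursors, had 0 and 21 UMIs in mKate2 AAV and 0 and 5 in Yap5SA AAV, at most 1.13 CPM, and was not tested.

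Otx2, the homeodomain factor needed for photoreceptor and bipolar fate, stood at 1.09 and 14.5 CPM in mKate2 AAV (13 and 269 UMIs) and at 1.14 and 41.9 CPM in Yap5SA AAV (11 and 328 UMIs). Crx, a homeodomain activator of photoreceptor genes, stood at 1.35 and 14.2 CPM in mKate2 AAV (16 and 264 UMIs) and at 0 and 24.3 CPM in Yap5SA AAV (0 and 190 UMIs). Nrl, the leucine zipper factor of rod fate, stood at 1.94 and 14.1 CPM in mKate2 AAV (23 and 263 UMIs) and at 0 and 43.9 CPM in Yap5SA AAV (0 and 344 UMIs). In all 3, Yap5SA AAV replicate 3 was the highest library, and replicate 1 of either group was low. Nr2e3, a nuclear receptor that represses cone genes in rods, followed the order of Crx and Nrl at 0.926 and 21.8 CPM in mKate2 AAV (11 and 405 UMIs) and 0.416 and 38.8 CPM in Yap5SA AAV (4 and 304 UMIs). The log2 fold changes were 1.29 for Otx2, 0.47 for Crx, 1.28 for Nrl and 0.61 for Nr2e3, with SEs between 1.80 and 2.16, and none was larger than its SE. The 0 UMIs of Crx and Nrl in Yap5SA AAV replicate 1 allow up to 0.312 CPM, and fitted fold changes of these 2 genes depend on the count that the model adds to a 0.

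**Figure D1:**
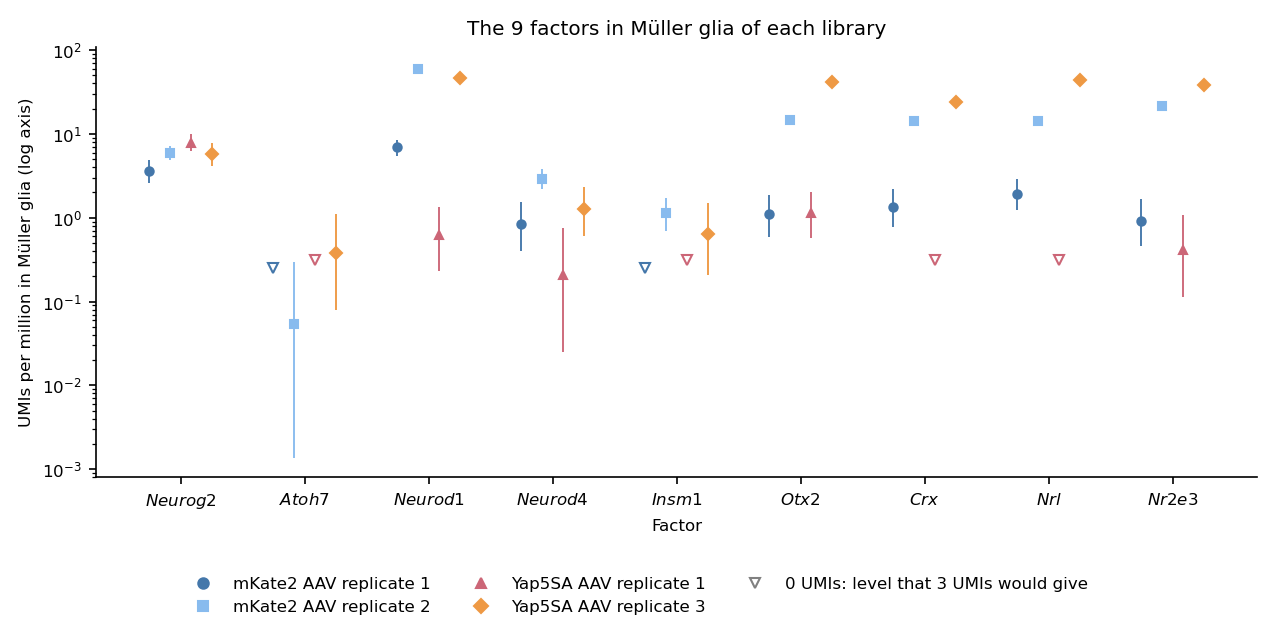
CPM of the 9 factors in Müller glia of each library on a log axis, with exact 95% Poisson intervals; open triangles mark 0 UMIs at the level that 3 UMIs would give. Neurog2 spans 3.62 to 7.90 CPM over the 4 libraries, whereas Nrl spans 0 to 43.9 CPM with both 9.0.1 libraries above both 8.0.0 libraries.

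Over all genes, edgeR tested 15285, of which 0 passed an adjusted p of 0.05 (0%), and 30 had an unadjusted p under 0.05 (0.196%). DESeq2 also called 0, with 52 unadjusted on the same 15285 genes (a test added after seeing the data) and 91 on 24433 genes without the filter on low counts. Of the 9 factors 7 passed the filter, and 0 of these 7 were called or had an unadjusted p under 0.05. Adjusted p ranged from 0.999 to 1.00 for each factor over the alternatives. The libraries of the groups did not overlap for 15.4% of tested genes and for 0 of the 7 factors. Without Yap5SA AAV replicate 3, Neurod1, Crx and Nrl were under 0.05 unadjusted (edgeR), but only the mKate2 AAV libraries then give a spread, and adjusted p was 0.999 or above. The fold changes of Otx2, Crx, Nrl and Nr2e3 were negative without that library, and those of Crx and Nr2e3 also without mKate2 AAV replicate 1. Neurod1 turned positive without mKate2 AAV replicate 2 or without Yap5SA AAV replicate 1. Neurog2 was at -0.0111 without mKate2 AAV replicate 1, so the signs of 6 of the 7 tested factors depend on single libraries.

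Within each Cell Ranger version the groups had 1 library each, so ratios carry counting intervals and no test. Neurog2 was 2.18 times as high in the Yap5SA AAV library as in the mKate2 AAV library within 8.0.0 (interval 1.48 to 3.25), and 0.962 times within 9.0.1 (0.665 to 1.37). The higher Neurog2 level was thus seen in 1 of the 2 pairs, but its direction within 9.0.1 depends on a few cells. The 2 highest cells of each library were picked by their own Neurog2 counts and left out. Within 9.0.1, Neurog2 then stood at 4.34 CPM in mKate2 AAV and 4.76 CPM in Yap5SA AAV. Neurod1 was lower in the Yap5SA AAV library of both pairs, at 0.0903 times (0.0322 to 0.205) within 8.0.0 and 0.775 times (0.686 to 0.873) within 9.0.1. Within 9.0.1 the direction of Neurod1 depends on which cells are summed. MGs outside clusters named as another type had 43.7 CPM (40.7 to 46.9) in mKate2 AAV and 48.6 CPM (43.7 to 53.9) in Yap5SA AAV, MGs in MG-like clusters had 41.6 (38.6 to 44.7) and 35.0 CPM (30.3 to 40.2), and MGs without the cell with most Neurod1 UMIs of each library had 49.97 and 36.3 CPM. The last 2 of these sums were chosen after the values were seen. Neurod4 was at 0.247 times (0.0263 to 1.16) and 0.439 times (0.1995 to 0.872). Nrl and Crx pointed in opposite directions in the pairs. Nrl was at least 6.21-fold lower in the Yap5SA AAV library within 8.0.0, against a floor of 3 counts in that library, and 3.10 times as high (2.64 to 3.66) within 9.0.1. Crx was at least 4.32-fold lower within 8.0.0 and 1.71 times as high (1.41 to 2.07) within 9.0.1. Nr2e3 stood at 0.449 times (0.104 to 1.51) and 1.78 times (1.53 to 2.07), and Otx2 at 1.04 times (0.424 to 2.53) and 2.89 times (2.46 to 3.41). The 12 rod markers, summed in the same MGs, stood at 0.262 times (0.234 to 0.292) within 8.0.0 and 1.89 times (1.85 to 1.93) within 9.0.1. Crx, Nrl and Nr2e3 pointed in the same direction as the markers in both pairs, while Neurod1 did not within 9.0.1 nor Otx2 within 8.0.0. Whether rod RNA accounts for the levels of the factors was not tested here.

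Shares of MGs with a UMI of a factor also depend on depth, so each MG with at least 2000 UMIs was thinned to 2000. This left out 308 and 870 MGs of the mKate2 AAV libraries and 93 and 411 of the Yap5SA AAV libraries. At this depth 2.92% and 8.47% of mKate2 AAV MGs and 1.85% and 23.5% of Yap5SA AAV MGs had a UMI of at least 1 factor (unthinned 7.21%, 13.6%, 7.60% and 31.0%). The means were 5.69 ± 3.92% and 12.7 ± 15.3% (SD, n = 2 each), and an exact two-sided permutation test gave p = 1. Yap5SA AAV replicate 3 alone put the mean of its group higher, since without it the difference of 7.004 percentage points became -3.85. For Neurog2 the thinned shares were 0.606% and 0.818% in mKate2 AAV and 1.42% and 0.827% in Yap5SA AAV. Both Yap5SA AAV libraries were above both controls, and the exact permutation p of 0.3333 is the smallest that 2 against 2 libraries can give. Replicate 3 exceeded the higher control by little, and its CPM lay below that control's. With a glial marker share of at least 1%, with only MG-like clusters, without cells of other named clusters or with a rod marker share under 0.2%, this order did not hold (exact permutation p = 0.667 each). It held with thinning to 1000 UMIs, which keeps every MG, at 0.366% and 0.425% against 0.648% and 0.528%, and with Yap5SA AAV replicate 2 in place of 1. Unthinned, 2.27%, 1.90%, 6.72% and 2.39% of MGs held a Neurog2 UMI.

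Microglia-like cells, a type not known to use these factors, served as a measure of free RNA. In them a Neurog2 UMI was found in 0% of 34 and 0.211% of 949 cells in mKate2 AAV and in 0% of 160 and 0% of 66 cells in Yap5SA AAV. Their median depths were 13030.5, 4050, 12772.5 and 5352.5 UMIs. The counts of 0 allow up to 8.82%, 1.88% and 4.55% of cells. Neurog2 in MGs of mKate2 AAV replicate 2 (5.97 CPM) was above its level in microglia-like cells of that library (0.350 CPM, interval 0.0423 to 1.26), and so was that of Yap5SA AAV replicate 1 (7.90 CPM against 0, interval up to 1.67). In the other 2 libraries the few microglia-like cells had 0 Neurog2 UMIs with intervals up to 7.02 and 6.87 CPM, so MGs cannot be told apart from them. For the other factors the gap differed by gene and library. Otx2 and Nr2e3 stood at 41.9 and 38.8 CPM in MGs of Yap5SA AAV replicate 3, against 1.86 CPM each in microglia-like cells (1 UMI each, interval up to 10.4). Neurod1 stood at 5.71 CPM in microglia-like cells of mKate2 AAV replicate 1, against 6.90 CPM in MGs, and at 7.17 CPM against 60.0 CPM in replicate 2. Neurod4 was at 6.47 CPM in microglia-like cells of mKate2 AAV replicate 2 (37 UMIs, 20 of them in 1 cell), above its 2.91 CPM in MGs, so Neurod4 in MGs cannot be told apart from free RNA there. Any of the 9 factors was seen in 8.96% of microglia-like cells of mKate2 AAV replicate 2 and 12.1% of those of Yap5SA AAV replicate 3, or in 4.10% and 2.84% after thinning.

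Across cell types the factors differed in where they were highest. Cell types with at least 20 cells in a library were summed as for MGs, and the neurons come from mKate2 AAV replicate 2 and Yap5SA AAV replicate 3, whose values are given in this order. These are descriptions with no test between clusters.

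Neurog2 was the factor whose highest mean level was in MGs. Its mean was 5.81 CPM in MGs (range 3.62 to 7.90 over 4 libraries), 2.90 CPM in amacrine-like cells (3.38 and 2.42 CPM), 1.07 CPM in pigment epithelium-like cells, 0.267 CPM in rod-like cells and 0.0874 CPM in microglia-like cells. Neighbours in this order overlapped, and the amacrine-like values rest on 12 and 2 UMIs. No Neurog2 UMI was seen in cone-, ON bipolar-, OFF bipolar- or retinal ganglion-like cells. Atoh7 was highest in cone-like cells, at 12.7 and 8.86 CPM, but from 9 and 6 UMIs, and was detected in 12.8% and 10.0% of these cells. OFF bipolar-like cells followed at 0.982 and 2.30 CPM with overlapping counting intervals, and MGs had a mean of 0.109 CPM. The retinal ganglion-like cells, the class that depends on Atoh7 in development, had 0 Atoh7 UMIs in the 28 cells of mKate2 AAV replicate 2. The interval of this 0 reaches 14.5 CPM, above both cone-like values. These 28 cells also held 445 CPM of Neurod4, which overlapped OFF bipolar-like cells, 90.5 CPM of Otx2 and 47.2 CPM of Crx. Their name rests on marker genes alone. Whether they include other cells or free RNA was not tested, so their values may not be ganglion cell levels.

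Neurod1 was highest in both photoreceptor types. Rod-like cells held 1613 and 1221 CPM and cone-like cells 1372 and 1319 CPM, which overlap. OFF bipolar-like cells (351 and 412 CPM) and ON bipolar-like cells (368 and 357 CPM) followed, then retinal ganglion-like cells (157 CPM, 1 library), amacrine-like cells (72.6 and 38.7 CPM) and MGs (mean 28.5 CPM). The MG range of 0.623 to 60.0 CPM overlapped that of amacrine-like cells. A Neurod1 UMI was found in 92.3% and 74.7% of rod-like cells, compared with 5.25% and 9.10% of MGs in the same libraries. Neurod4 was highest in bipolar-like cells, with 730.5 and 580.5 CPM in ON and 462 and 537 CPM in OFF bipolar-like cells, which overlap. Retinal ganglion-like cells held 445 CPM of Neurod4 in 1 library, amacrine-like cells 54.1 and 89.5 CPM, cone-like cells 21.2 and 1.48 CPM, and rod-like cells 0.965 and 1.12 CPM. MGs had a mean of 1.31 CPM, and ranges from cone-like cells downward overlapped. Insm1 was low throughout, with 26.7 and 23.6 CPM in rod-like cells, 17.0 and 0 CPM in cone-like cells, 8.18 and 4.61 CPM in OFF bipolar-like cells, a mean of 0.692 CPM in microglia-like cells and a mean of 0.442 CPM in MGs. All neighbours in the order of Insm1 overlapped.

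Otx2 was highest in pigment epithelium-like cells (456 and 521 CPM), where it is a known regulator, and its ON bipolar-like (348 and 358 CPM) and OFF bipolar-like levels (318 and 345 CPM) came next. Rod-like cells held 226 and 239 CPM, cone-like cells 150.1 and 130.0 CPM, retinal ganglion-like cells 90.5 CPM, MGs a mean of 14.6 CPM and amacrine-like cells 11.8 and 3.63 CPM. Neighbours that did not overlap were OFF bipolar- and rod-like cells, rod- and cone-like cells, and retinal ganglion-like cells and MGs. Crx was shared by rod-like (379 and 496 CPM) and cone-like cells (406 and 452 CPM), which overlap, and was lower in ON bipolar-like (103 and 116 CPM) and OFF bipolar-like cells (86.7 and 59.9 CPM). MGs had a mean of 9.95 CPM of Crx, and amacrine-like cells 4.51 and 4.84 CPM. Nrl and Nr2e3 were the most restricted factors. Nrl stood at 442 and 1249.7 CPM in rod-like cells, against 1.42 and 2.95 CPM in cone-like cells, and Nr2e3 at 676 and 1053 CPM against 0 and 7.38 CPM. For both, MGs came second, at up to 43.9 CPM of Nrl and 38.8 CPM of Nr2e3, below the rod-like range and overlapping with the types that followed.

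**Figure D2:**
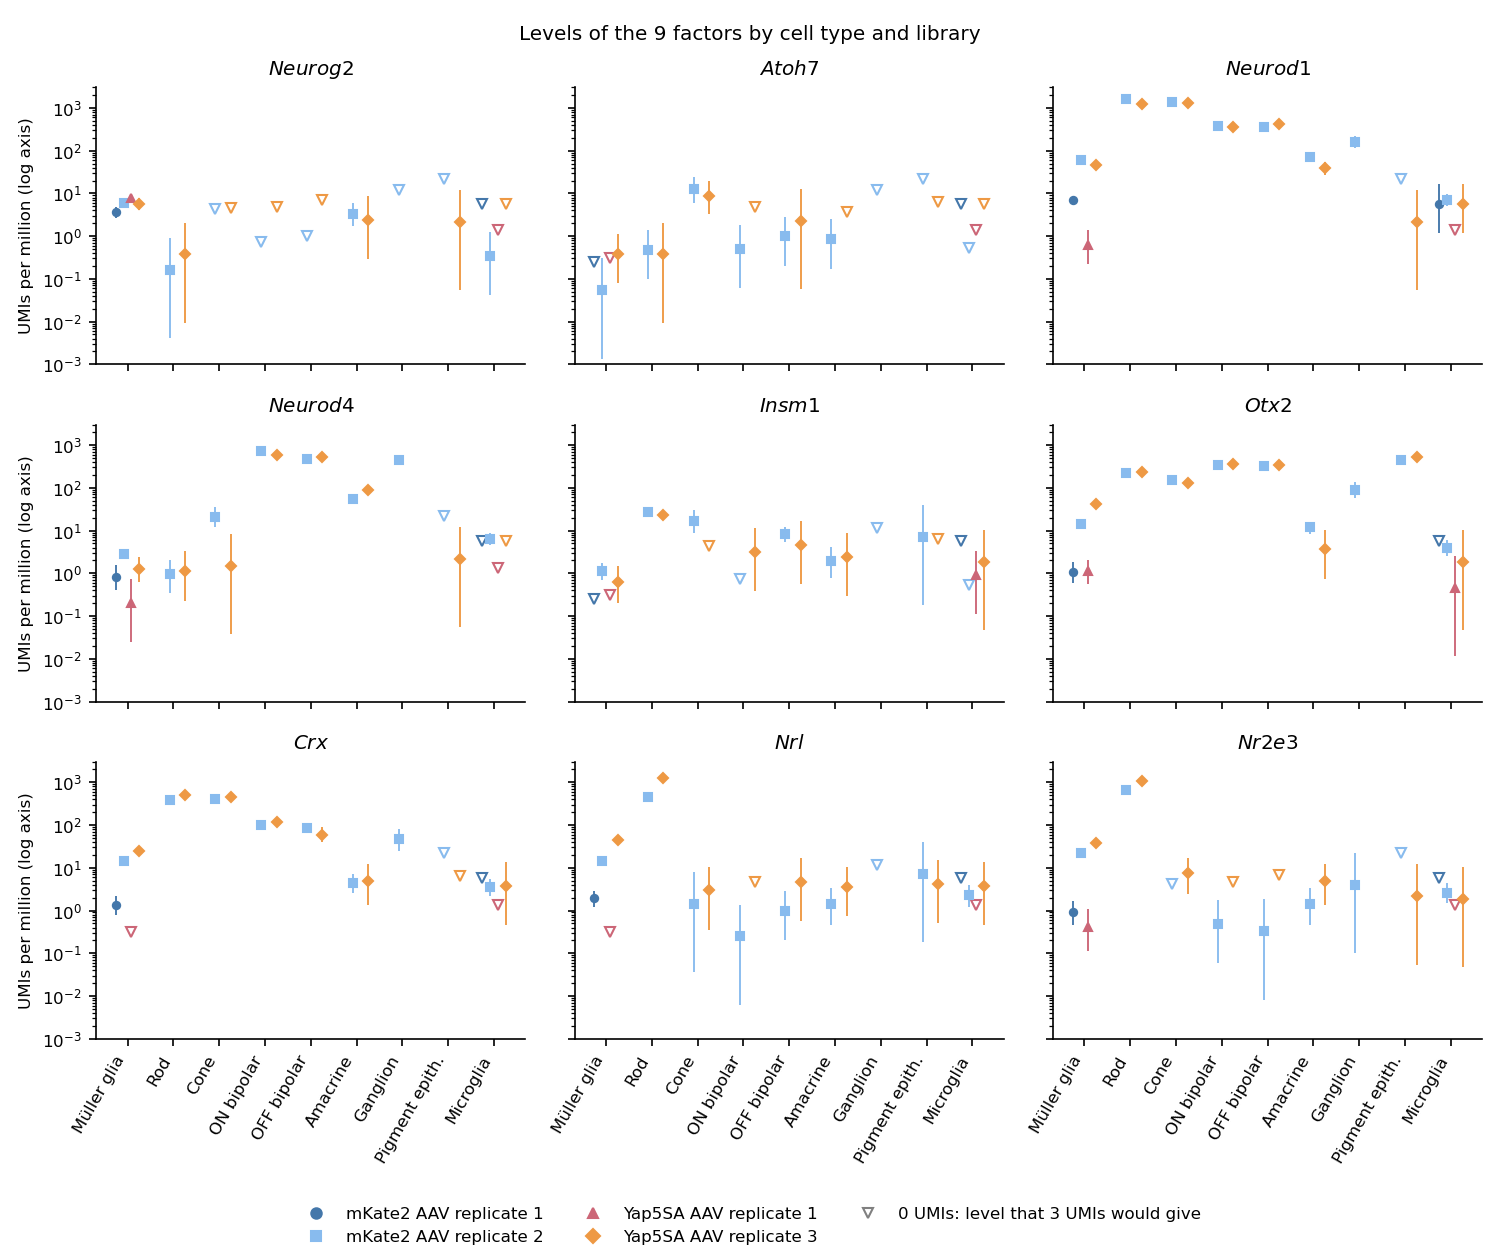
CPM of each of the 9 factors by cell type and library on a log axis, with exact 95% Poisson intervals; open triangles mark 0 UMIs at the level that 3 UMIs would give, and sums of fewer than 20 cells are left out. Nrl and Nr2e3 peak in rod-like cells, Neurod4 in bipolar-like cells and Otx2 in pigment epithelium-like cells, and Neurog2 alone has its highest mean in Müller glia, at 5.81 CPM.

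Each factor was also set against the summed UMIs of 12 rod markers, to compare its ratio to rod RNA in MGs with that in rod-like cells of the same library. These markers summed to 158 and 1156 CPM in MGs of mKate2 AAV and to 41.5 and 2188 CPM in MGs of Yap5SA AAV. All 12 had UMIs in 3 libraries and 11 had in Yap5SA AAV replicate 1, where Pde6b was at 0. Reep6 was the most abundant marker in Yap5SA AAV replicate 1, at 27.2 CPM. The median share of rod markers per MG was 0%, 0%, 0% and 0.0597%, so the sums rested on a minority of MGs in 3 libraries.

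Nrl had nearly the same ratio in MGs as in the rods in both 9.0.1 libraries. It had 12.2 UMIs per 1000 rod marker UMIs in MGs (interval 10.8 to 13.8) and 12.3 in rod-like cells (11.8 to 12.7) of mKate2 AAV replicate 2, and 20.1 (18.0 to 22.3) and 20.0 (19.3 to 20.7) in Yap5SA AAV replicate 3. Nr2e3 had 18.8 per 1000 in both MGs and rod-like cells of mKate2 AAV replicate 2, and 17.7 and 16.8 in Yap5SA AAV replicate 3. For both genes the MG interval held the rod value in each library when all MGs were summed. The MG and rod-like sums share cells, since 13 and 3 rod-like cells of these libraries also met the MG rule. The 13 held 43 of the 263 Nrl, 80 of the 405 Nr2e3 and 320 of the 1115 Neurod1 UMIs of MGs. With only MG-like clusters, mKate2 AAV replicate 2 had 165 Nrl and 281 Nr2e3 UMIs beside 12750 rod marker UMIs. Yap5SA AAV replicate 3 had 145 and 153 beside 8525. Per rod marker UMI, Nrl of Yap5SA AAV replicate 3 was then below the rod-like value, and the other ratios were above theirs. No interval is given for these ratios, so the match is shown only for sums of all MGs. Neurod1 also differed between libraries in the same way in both cell types, with 51.9 (48.8 to 55.1) in MGs and 44.8 in rod-like cells of mKate2 AAV replicate 2, but 21.2 (19.1 to 23.6) and 19.5 in Yap5SA AAV replicate 3. Crx had 12.3 (10.8 to 13.9) against 10.5, and 11.1 (9.56 to 12.8) against 7.93. The MG intervals of Crx in both libraries and of Neurod1 in mKate2 AAV replicate 2 lay above the rod values. The MG with 193 of these Neurod1 UMIs also held many rod marker UMIs, and without it the ratio was 51.4 (48.1 to 55.0), still above. Without the highest cell of Yap5SA AAV replicate 3 it was 20.3 (17.9 to 22.8). Microglia-like cells of mKate2 AAV replicate 2 gave 44.7 per 1000 for Neurod1, 21.8 for Crx, 14.2 for Nrl and 16.4 for Nr2e3, and also 25.1 (15.8 to 37.9) for Otx2, 40.3 (28.2 to 56.0) for Neurod4 and 2.18 (0.264 to 7.90) for Neurog2. Neurod1, Crx, Nrl and Nr2e3 together had 95.2 UMIs per 1000 in MGs, 86.3 in rod-like and 97.1 (77.2 to 121) in microglia-like cells of mKate2 AAV replicate 2. In Yap5SA AAV replicate 3 they had 70.1 in MGs, 64.2 in rod-like and 80.0 (33.6 to 164) in microglia-like cells. With only MG-like clusters they had 105 in mKate2 AAV replicate 2 and 68.5 in Yap5SA AAV replicate 3. MGs of the 8.0.0 libraries had 70.2 (58.4 to 83.8) in mKate2 AAV and 25.1 (11.9 to 46.6) in Yap5SA AAV. The latter rests on 399 rod marker UMIs, and Reep6 alone gave 27.2 of the 41.5 CPM of these markers, so the 2 values cannot be compared as ratios to the same rod RNA.

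Otx2, Neurod4 and Neurog2 did not keep the ratio of rods. In the 9.0.1 libraries Otx2 had 12.5 and 19.1 UMIs per 1000 rod marker UMIs in MGs, against 6.26 and 3.82 in rod-like cells. In Yap5SA AAV replicate 3, MGs in clusters named as another type held 247 of the 328 Otx2 UMIs. The other MGs held 16541 of the 17140 rod marker UMIs, so the Otx2 ratio there rests mostly on the former. Neurod4 had 2.51 and 0.583, against 0.0268 and 0.0179, and Neurog2 had 5.16 and 2.63, against 0.00446 and 0.00597. In the 8.0.0 libraries, with few or no rods, Neurog2 reached 22.9 per 1000 in MGs of mKate2 AAV replicate 1. It reached 190.5 per 1000 in those of Yap5SA AAV replicate 1, from 399 rod marker UMIs, of which Reep6 gave the most. The 2 values therefore cannot be compared as ratios to the same rod RNA. The 5 rod-like cells of mKate2 AAV replicate 1 had 0 Neurog2 UMIs (interval up to 3.72 per 1000), and Yap5SA AAV replicate 1 had no rod-like cell. Neurod1 in mKate2 AAV replicate 1 stood at 43.6 (34.5 to 54.4) in MGs against 13.1 (6.95 to 22.5) in these 5 cells. The 4 photoreceptor factors together stood at 70.2 against 37.3 (26.1 to 51.7). Neurod1 in MGs of this library thus did not share the ratio of these few rods. Of the 5 cells, 2 also met the MG rule and held 6 of the 13 Neurod1 UMIs. Without cells of clusters named as another type, the Neurod1 ratio in MGs was 50.6 (39.7 to 63.8). Otx2, Neurod4 and Neurog2 were also above the rods in microglia-like cells of mKate2 AAV replicate 2, so the departure is not particular to MGs. Insm1, at 0.977 and 0.292 in MGs against 0.741 and 0.376 in rod-like cells, lay near the rods with wide intervals (0.605 to 1.49 and 0.0947 to 0.681 in MGs).

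**Figure D3:**
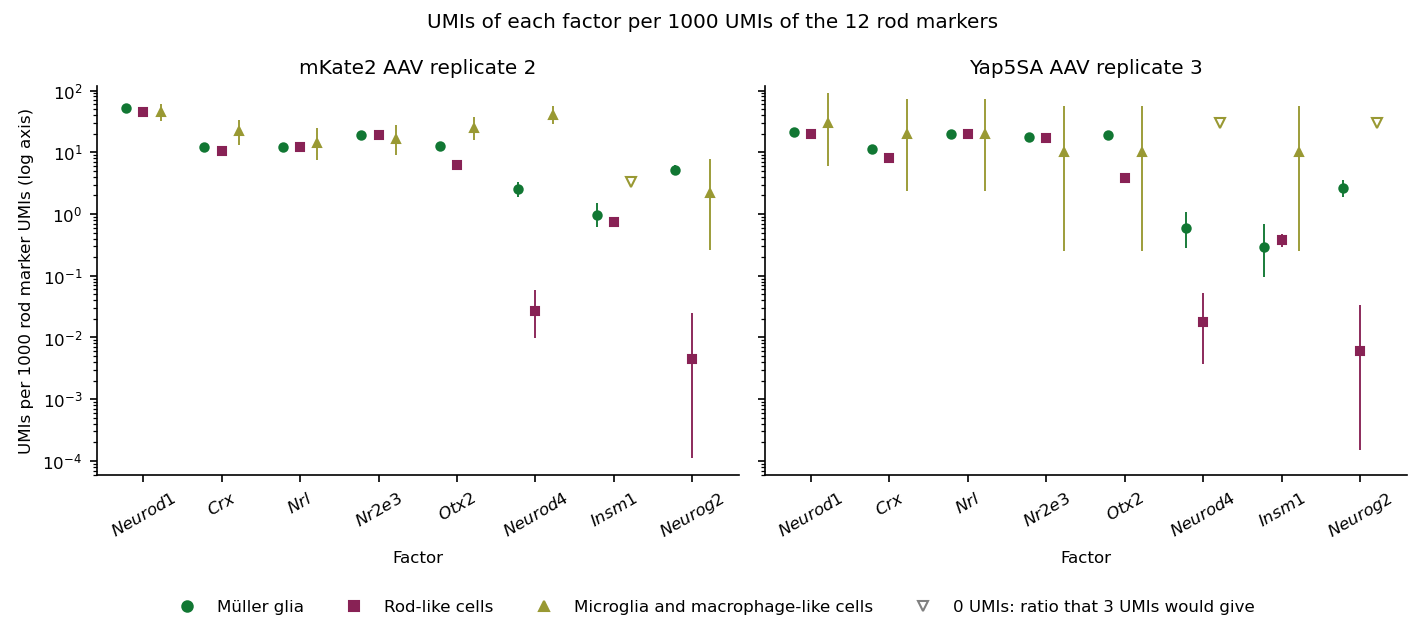
UMIs of 8 factors per 1000 UMIs of the 12 rod markers on a log axis, in Müller glia, rod-like and microglia-like cells of the 2 libraries with many rods, with 95% intervals; open triangles mark 0 UMIs. Summed over all Müller glia, Nrl and Nr2e3 lie close to rod-like cells (Nrl 12.2 and 12.3 per 1000 in mKate2 AAV replicate 2). Neurod4 and Neurog2 lie far above the rods. The Müller glia and rod-like sums share 13 cells in mKate2 AAV replicate 2 and 3 cells in Yap5SA AAV replicate 3.

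In the 9.0.1 libraries the UMIs of the photoreceptor factors were concentrated in a minority of MGs. MGs with a rod marker share of at least 0.2%, a limit chosen after the values were seen, numbered 34 (2.27%) and 157 (5.42%) in mKate2 AAV and 1 (0.125%) and 339 (25.3%) in Yap5SA AAV. In mKate2 AAV replicate 2 these 5.42% of MGs held 82.6% of Neurod1, 72.3% of Crx, 82.9% of Nrl and 89.1% of Nr2e3 UMIs. In Yap5SA AAV replicate 3 the 25.3% held 85.4%, 84.2%, 85.8% and 87.2%. In mKate2 AAV replicate 1 the 2.27% held 56.1%, 37.5%, 43.5% and 27.3%, so most Crx, Nrl and Nr2e3 UMIs lay outside them. Neurod1 stood at 479 CPM in these MGs and at 4.47 CPM in MGs with no rod marker UMI in mKate2 AAV replicate 2, and at 245 and 10.9 CPM in Yap5SA AAV replicate 3. Nrl stood at 113 and 1.08 CPM, and at 233 and 7.53 CPM. Of Neurog2 UMIs, 0% and 0% lay in such MGs of mKate2 AAV and 0% and 8.89% in those of Yap5SA AAV. Neurog2 stood at 0 CPM in them and 7.87 CPM in MGs with no rod marker UMI in mKate2 AAV replicate 2, but at 3.16 and 0 CPM in Yap5SA AAV replicate 3. In the 8.0.0 libraries such MGs were too few to tell. Neurod4 had 0%, 3.70% and 0% there in the libraries other than Yap5SA AAV replicate 1. Leaving out these MGs lowered the summed level of the 9 factors from a mean of 91.2 to 31.9 CPM over the 4 libraries, and turned the log2 fold change of Crx from 0.47 to -0.41.

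Otx2 in MGs lay partly in cells of another type. In Yap5SA AAV replicate 3, 243 of its 328 UMIs lay in 60 cells that met the MG rule but fell in the pigment epithelium-like cluster, where Otx2 stood at 521 CPM. In mKate2 AAV replicate 2, 18 such cells held 62 of 269 UMIs, and in Yap5SA AAV replicate 1, 3 such cells held all 11. The 6 pigment epithelium markers summed to 8.76 and 463 CPM in MGs of mKate2 AAV and 208 and 3576 CPM in MGs of Yap5SA AAV. The most abundant of them was Ttr, at 5.39, 429, 196 and 3212 CPM, and Tyrp1 was at 0 in mKate2 AAV replicate 1. With only clusters called MG-like, Otx2 had a log2 fold change of -0.03 in place of 1.29. Another 152 MGs of Yap5SA AAV replicate 3 and 40 of mKate2 AAV replicate 2 lay in an unnamed cluster led by the cone genes Pde6h, Opn1sw and Gnat2, where Nrl stood at 356 and 354 CPM.

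**Figure D4:**
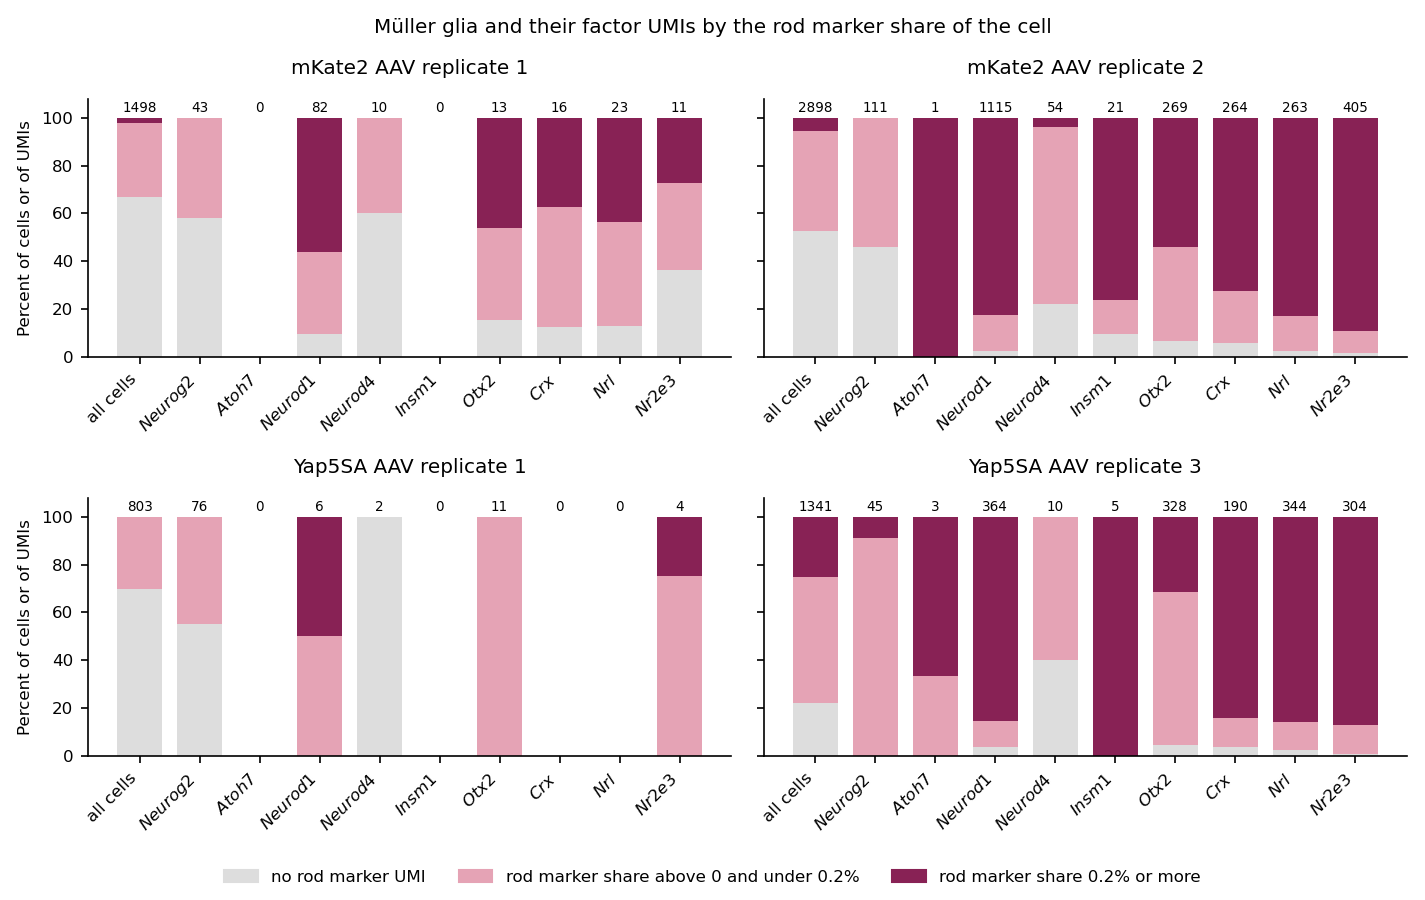
Percent of all Müller glia and of the UMIs of each factor in Müller glia that lie in cells with no rod marker UMI, with a rod marker share under 0.2%, and with 0.2% or more, by library; the number above each bar is the total of cells or UMIs. In Yap5SA AAV replicate 3, 25.3% of Müller glia hold 85.8% of Nrl UMIs, but 8.89% of Neurog2 UMIs.

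MGs with a Neurog2 UMI were few, and most had 1. They numbered 34 and 55 in mKate2 AAV and 54 and 32 in Yap5SA AAV, of which 25, 36, 38 and 24 had a single UMI. Cells with 3 or more numbered 0, 7, 5 and 3, and the highest cell held 2, 20, 4 and 4 UMIs. Without the 2 highest cells of each library the level was 3.29 and 4.34 CPM in mKate2 AAV and 7.20 and 4.76 CPM in Yap5SA AAV. These levels rest on 39, 80, 69 and 37 UMIs. Both Yap5SA AAV libraries were then above both controls, but the cells left out were picked by their own Neurog2 counts. This order is therefore no separate result. In the sums of all MGs, the libraries of the groups did not overlap for 15.4% of tested genes. MGs with a Neurog2 UMI were deeper than the rest, with median UMIs of 12361.5, 18338, 19035.5 and 11358 against 6026, 2894, 10219 and 2902. Any of the other 8 factors was found in 2.94%, 14.5%, 3.70% and 25.0% of MGs with a Neurog2 UMI and 5.05%, 11.9%, 0.935% and 29.3% of MGs without one, unthinned, so they were more frequent beside Neurog2 in 2 of the 4 libraries, with 8 and 2 cells behind these shares. In the 8.0.0 library of mKate2 AAV, tdTomato was found in 52.9% (35.1 to 70.2) of MGs with a Neurog2 UMI. It was found in 44.9% (42.3 to 47.5) of MGs without one. In that of Yap5SA AAV the shares were 75.9% (62.4 to 86.5) and 64.4% (60.8 to 67.8). The intervals of each pair overlap, and these shares were not thinned.

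Within MGs, Neurog2 UMIs were also counted by cluster. Cluster 9, led by the immediate early genes Maff, Ccn1, Fosl1, Arc and Egr3, held 77 of the 111 Neurog2 UMIs of mKate2 AAV replicate 2 in 263 MGs (9.10 CPM) and 20 of the 45 of Yap5SA AAV replicate 3 in 89 MGs (7.54 CPM), the most of any cluster in both 9.0.1 libraries. Cluster 4, led by the reactive glia genes Lcn2, C3 and Steap4, held 65 of the 76 UMIs of Yap5SA AAV replicate 1 in 426 MGs (8.69 CPM, interval 6.71 to 11.1), and stood at 5.54 CPM (2.76 to 9.91) from 96 MGs in mKate2 AAV replicate 1. These clusters also held many of the UMIs of all genes in MGs. Cluster 9 held 8461175 of 18588061 in mKate2 AAV replicate 2 and 2652840 of 7833275 in Yap5SA AAV replicate 3. Cluster 4 held 7479086 of 9625755 in Yap5SA AAV replicate 1. Within clusters 4 and 9 the counting intervals of the groups overlapped. In cluster 3 the level was 3.13 CPM in mKate2 AAV replicate 1 and 4.49 CPM in Yap5SA AAV replicate 1. In Yap5SA AAV replicate 3, clusters 0 and 12 stood at 6.85 CPM (3.13 to 13.0) and 6.62 CPM (2.66 to 13.6). These intervals overlapped that of cluster 9 (4.61 to 11.6). In mKate2 AAV replicate 2, cluster 9 (7.18 to 11.4) overlapped cluster 1 (5.33 CPM, 2.66 to 9.54). It lay above cluster 2 (3.71 CPM, 2.16 to 5.94).

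The glial limit of 0.5% left out some cells with more Neurog2 than those it kept. Among all cells, 193 had a glial marker share from 0.4% to 0.5% and 210 from 0.5% to 0.6%. Just outside the limit Neurog2 stood at 20.6 CPM, with all 19 UMIs in Yap5SA AAV replicate 1, and just inside at 2.74 CPM. Neurod1 stood at 99.8 and 289.9 CPM just outside and just inside, Nr2e3 at 52.0 and 119, Crx at 32.5 and 61.3, Nrl at 42.3 and 57.6 and Otx2 at 24.9 and 48.5 CPM. In MG-like clusters alone, 45 cells of Yap5SA AAV replicate 1 under the limit held 27 Neurog2 UMIs, 82.7 CPM (54.5 to 120), of which 26 lay in 4 cells with glial shares from 0.291% to 0.429%. In mKate2 AAV replicate 2, 140 such cells held 13 Neurog2 UMIs, 24.8 CPM (13.2 to 42.4), with 11 in 1 cell. In Yap5SA AAV replicate 3, 81 cells held 4 UMIs, 12.5 CPM (3.41 to 32.0), and in mKate2 AAV replicate 1, 56 cells held 0. With cells on both sides of the limit, Neurog2 in MG-like clusters was 3.65 and 7.08 CPM in mKate2 AAV and 10.9 and 6.40 CPM in Yap5SA AAV, so the groups still overlapped.

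**Figure D5:**
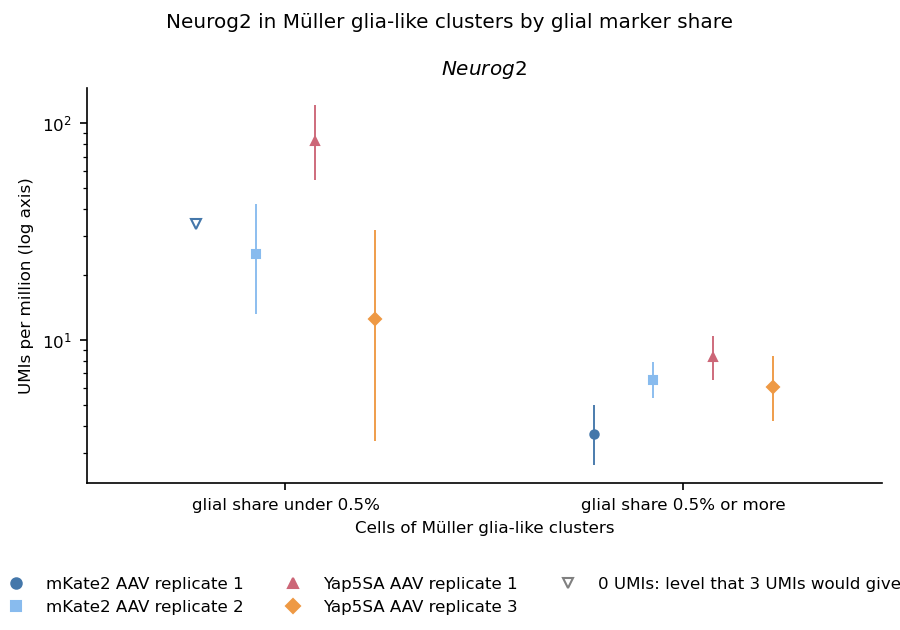
CPM of Neurog2 on a log axis in cells of Müller glia-like clusters under and within the glial marker limit of 0.5%, by library, with exact 95% Poisson intervals; open triangles mark 0 UMIs at the level that 3 UMIs would give. In Yap5SA AAV replicate 1, 45 cells under the limit reach 82.7 CPM of Neurog2 against 8.30 CPM within it.

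Most MGs with 3 or more factors had a rod marker share of at least 0.2%, but few such bipolar-like cells did. Of MGs, 92.8% and 86.4% in mKate2 AAV and 92.4% and 69.0% in Yap5SA AAV had no UMI of any of the 9 factors. Those with 3 or more factors numbered 4 (0.267%), 57 (1.97%), 0 and 42 (3.13%), and the 0 of 803 MGs in Yap5SA AAV replicate 1 allows up to 0.374%. Clusters named as another type held 14 of the 57, and unnamed clusters held 31 of the 42. With only MG-like clusters the shares in the 9.0.1 libraries were 1.06% in mKate2 AAV and 0.783% in Yap5SA AAV, so their order turned. Of all MGs with 3 or more factors, 3 of 4, 44 of 57 and 39 of 42 had a rod marker share of at least 0.2%. In rod-like cells 3 or more factors were found in 86.0% and 79.6%, and in cone-like cells in 76.9% and 82.5%. The shares were 87.2% and 73.0% in ON bipolar-like cells and 85.5% and 81.0% in OFF bipolar-like cells. Of the ON bipolar-like cells with 3 or more factors, 10 of 156 and 1 of 27 had a rod marker share of at least 0.2%. Of the OFF bipolar-like cells, 2 of 136 and 0 of 17 did. Amacrine-like cells had 7.14% and 7.55%, and microglia-like cells 0.211% in mKate2 AAV replicate 2 and 0% in the other libraries. Among MGs Nrl and Nr2e3 were found together in 43 cells of mKate2 AAV replicate 2, 46.2% of the cells with Nrl and 46.7% of those with Nr2e3, and in 44 cells of Yap5SA AAV replicate 3, 31.2% and 37.9%. Neurog2 and Neurod1 were found together in 0 and 2 MGs of mKate2 AAV and 1 and 3 MGs of Yap5SA AAV. Leaving out MGs with a rod marker share of at least 0.2% lowered the mean share of MGs with 3 or more factors from 1.34% to 0.210%.

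Other regulators of the same steps gave no called gene either. Of 20 neurogenic progenitor genes 17 had a UMI in MGs and 10 were tested, with 6 above 0 and a median log2 fold change of 0.12, beside -0.03 over all genes. Btg2, an antiproliferative gene of neurogenic progenitors and the most abundant of them, stood at 113 and 2164 CPM in mKate2 AAV and 251 and 1550.4 CPM in Yap5SA AAV. Gadd45a stood at 39.9, 110.5, 62.9 and 31.3 CPM in the same order, and Sox4 at 31.5, 61.5, 53.0 and 64.5 CPM. Of 12 photoreceptor regulators 11 were tested, with 6 above 0 and a median of 0.08. Rorb, an orphan nuclear receptor of rod development, was at 1006, 805, 1034 and 1005 CPM, Rax, a homeodomain factor that MGs also express, at 359, 169.7, 272 and 275 CPM, and Thrb, a thyroid hormone receptor of cone development, at 113, 127, 113 and 198 CPM. Of 12 bipolar regulators 5 were tested, with 3 above 0 and a median of 0.12. Irx5, a homeodomain factor of bipolar cells, was at 53.9, 59.6, 57.0 and 61.7 CPM and Fezf2 at 4.55, 2.10, 4.05 and 4.21 CPM. Of 13 inner retina and ganglion cell regulators 11 had a UMI and 1 was tested, Tfap2a, at 0.168, 0.968, 1.45 and 0.894 CPM. Onecut2 and Tfap2b, the next most abundant, reached at most 1.83 and 1.34 CPM. Beside 0 genes called by edgeR in each list, 0 had an unadjusted p under 0.05, and DESeq2 called 0. The median of each list changed sign when 1 library or another was left out.

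Genes of like pattern were ranked by Pearson correlation of log2(CPM + 1) over 23 sums of cell type and library (11 cell types, 14293 genes), which share 4 libraries and differ in depth. Some pigment epithelium-like cells are also in the MG sums. For Neurog2 the nearest genes were Pax6os1 (r = 0.8996), Sfrp4 (0.898) and Gm50048 (0.891). For Neurod1 they were Crx (0.943), Slc17a7 (0.941) and Rd3 (0.936), and for Neurod4 Tmem215 (0.979) and Syt4 (0.961). Insm1 had no gene above 0.759 (Rncr4). Otx2 was nearest to Otx2os1 (0.902), which overlaps it on the other strand, so reads of the 2 cannot be told apart without strand, then to Osbp2 (0.894) and Abca4 (0.890). Crx was nearest to Cplx4 (0.980), Rbp3 (0.978) and Rgs9bp (0.975). Nrl was nearest to Cnga1 (0.928), one of the markers that named the rod-like clusters, and Nr2e3 (0.923), and Nr2e3 to Gm14216 (0.936), Gm11342 (0.926) and Nrl (0.923). Atoh7, with 32 UMIs in these sums, was under the minimum of 100.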

How the data were processed

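The counts are UMI counts per cell made by the authors with Cell Ranger on the GRCm39 reference and are used as deposited. The labels name Cell Ranger 8.0.0, and the file headers name 8.0.0 for 3 libraries and 9.0.1 for mKate2 AAV replicate 2 and Yap5SA AAV replicate 3. All counts were analysed anew from the deposited matrices with Python 3.11.15 (numpy 2.4.6, pandas 2.3.3, scipy 1.17.1, scikit-learn 1.9.0, leidenalg 0.10.2, igraph 0.11.9, matplotlib 3.10.9) and R 4.3.3 (edgeR 4.0.16, limma 3.58.1, DESeq2 1.42.0).

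Cells had at least 1000 UMIs and at most 15% mitochondrial UMIs. No doublet caller was run. Clusters came from 3000 variable genes, 30 components, 15 neighbours and Leiden resolution 1, without the 9 factors and the genes of the lists. A cluster took the name of the marker list with the highest level (mean of each marker's CPM as a share of its highest cluster) if that was at least 0.2, if at least 3 of its markers were in 10% of cells, and if no other list had more markers among the 10 leading genes. For clusters with under 1/3 of their library's median UMIs 1 more rule was set after the values were seen, and it applied to 0 clusters. MG counts were summed by library and tested with edgeR (TMM, default filter on low counts, quasi-likelihood, two-sided, Benjamini-Hochberg) with 2 libraries per group. Shares were compared by an exact two-sided permutation test after thinning to 2000 UMIs. A limit for a count of 0 is 3 counts. Genes named are the 9 factors and, from the 3 most abundant genes of each of 4 pathway lists and the 3 genes most like each factor with at least 100 UMIs, all or some; the markers named were added after the values were seen. The factors and lists were chosen with earlier results of these data known.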

Additional observations from a re-analysis of the deposited data

Results flagged for a closer look

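Yap5SA AAV replicate 2, which was left out of the libraries compared because it shares its cells with replicate 1 and was used only in its place as an alternative, had 8.07 CPM of Neurog2 in Müller glia (interval 6.32 to 10.1, 73 UMIs). This is above the highest mKate2 AAV library, 5.97 CPM. The other 8 factors were not above the highest mKate2 AAV library there. Since the cells are those of replicate 1, at 7.90 CPM, the value is not a further sample.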

How the results depend on the processing

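No paired analysis was possible because the groups compared share fewer than 2 numbers (Yap5SA replicate 2 left out), and the labels do not say that equal numbers belong together. With other settings 0 genes were called throughout (edgeR or DESeq2). The count at unadjusted p under 0.05, 30 at first, was 52 with DESeq2 on the same genes. On 24433 genes without the filter it was 91 with DESeq2 and 225 with edgeR. It was also 52 with only Müller glia-like clusters and 151 with Cell Ranger version as a term, which compares the groups within versions. It was 125 to 423 with 1 library left out and 31 with Yap5SA AAV replicate 2 in place of 1, where the log2 fold change of Neurog2 was 0.39. DESeq2 on the same genes, Müller glia-like clusters, the version term and a rod marker share under 0.2% were chosen after seeing the data.

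Log2 fold changes changed sign for Crx (-0.0315) and Nr2e3 (-0.0874) with a glial share of at least 1%, and for Otx2 (-0.0267) with only Müller glia-like clusters. They also did so for Crx (-0.70) and Nrl (-0.25) with Cell Ranger version as a term, and for Crx (-0.41) with a rod marker share under 0.2%. Other fold changes of the tested factors kept their direction, and Neurod4 could not be tested with only Müller glia-like clusters. In these clusters Neurod4 was at 0.627 and 2.30 CPM in mKate2 AAV (7 and 39 UMIs) and at 0 and 0.520 CPM in Yap5SA AAV (0 and 3 UMIs). The libraries of the groups thus did not overlap there, from few UMIs. In the sums of all Müller glia they overlapped for Neurod4 and did not overlap for 15.4% of tested genes. The share over all genes in these clusters alone is not given here. Without cells of clusters named as another type, Otx2 went from 1.29 to 0.08 and Neurod1 from -0.67 to -0.20. Neurod1 was -1.62 with the version term and -1.32 with a glial share of at least 1%. The median of the neurogenic progenitor list, 0.12 from 10 genes, was -0.18 with DESeq2 and -0.17 with edgeR from 17 genes without the filter, 0.15 with DESeq2 on the same 10 genes, -0.27 with a glial share of at least 1% and -0.11 with a rod marker share under 0.2%. That of the photoreceptor regulators, 0.08, was -0.0325 with a glial share of at least 1%, but 0.33 without cells of clusters named as another type. With only Müller glia-like clusters it was 0.44, and that of the neurogenic progenitor list was 0.31. That of the inner retina list, 0.83 from 1 gene, was 0.86 with DESeq2 on that gene, and without the filter -0.71 with DESeq2 and -1.12 with edgeR from 11 genes.

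Leaving out 1 library at a time, which leaves a group with 1 library, moved Neurog2 from -0.0111 to 0.93, Neurod1 from -5.92 to 1.81 and Neurod4 from -3.29 to -0.17. It moved Otx2 from -2.96 to 4.32, Crx from -9.80 to 3.20, Nrl from -9.84 to 3.54 and Nr2e3 from -4.95 to 4.43. The lowest values of Crx and Nrl are against 0 UMIs and depend on the count that the model adds. List medians went from -0.39 to 0.97 (neurogenic progenitor), -0.47 to 0.64 (photoreceptor), -0.29 to 0.22 (bipolar) and -2.03 to 2.73 (inner retina). The difference in the share of Müller glia with any factor went from -3.85 to 17.9 percentage points, that without Neurog2 from -4.57 to 18.0, and that of Neurog2 alone from 0.115 to 0.703.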

Other observations

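The limits of these values are few libraries and mixed cells. Each group has 2 libraries of pooled retinas, and each group has 1 library per Cell Ranger version, so version, library and cell content cannot be told apart. Rods, other neurons and pigment epithelium-like cells were numerous only in the 9.0.1 libraries. RNA of Neurod1, Crx, Nrl and Nr2e3 in Müller glia was measured together with rod RNA, and free RNA, doublets and expression by the glia were not tested apart. Neurog2 rests on 275 UMIs in the Müller glia of 4 libraries. RNA levels do not give protein, and no time point other than day 56 is in the data.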
